A study of Mus musculus with 9 samples.

Results

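Matrix metalloproteinases (MMPs), ADAMTS proteases, ADAMTS-like proteins and the TIMP inhibitors were followed as 1 family of genes in RNA sequencing of mouse heart. Members were the protein-coding genes whose symbol is Mmp, Adamts or Adamtsl followed by a number and nothing else, together with Timp1, Timp2, Timp3 and Timp4. This rule found 49 genes of the 55401 in the count table, of which 21 were Mmp, 19 Adamts, 5 Adamtsl and 4 Timp genes. Mmp1a and Mmp1b carry a letter after the number and were not members. All hearts were from C57BL/6 mice, an inbred laboratory strain, and each treatment label covered 3 libraries. The libraries labelled Kmo+Ang II (Kmo_AngII here) and those labelled Ang II (AngII) came from mice given angiotensin II, a hormone that constricts vessels and raises blood pressure. The libraries labelled Ctrl came from mice given PBS, a buffered salt solution. The labels state neither what Kmo means nor an age, a dose or a duration. Sample titles give a second grouping by prefix, and its letters are likewise unexplained. KKA_K084, KKA_187 and KKA_186 are the Kmo_AngII libraries, WA_132, WC_3 and WC_182 the AngII libraries, and WA_130, WA_127 and WC_184 the Ctrl libraries, so the prefixes WA and WC cross the treatment labels. Whether the 3 libraries of a label are 3 animals is not stated, so p-values measure the spread between these libraries, which may be technical.

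MMPs are zinc-dependent proteases that cleave collagens, elastin and other matrix proteins, and most are made as inactive precursors that another protease must open. ADAMTS proteases cut proteoglycans such as versican, trim procollagens or cleave cartilage oligomeric matrix protein, and the ADAMTS-like proteins share their binding domains but have no protease domain. TIMPs block the active site of MMPs, and Timp3 also inhibits several ADAM and ADAMTS enzymes. In heart, the balance of these proteins is known for its part in fibrosis and in remodelling after injury or pressure overload.

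Of the 49 members, 8 lie side by side in a cluster on chromosome 9 that holds the collagenase, stromelysin, matrilysin and metalloelastase genes. The start regions of 6 of these 8 genes are shown because an exact AP-1 motif was found there and in no other member's promoter among the 34 members searched. In addition, 3 of the 6 genes had 0 counts in all 9 libraries. Each sequence is the RefSeq promoter on build GRCm38.p6, plus strand, from 110 bases before to 30 after the start, with the AP-1 motif (TGANTCA) and the TATA motif (TATAAA) in capitals. The windows are chr9:7272404-7272543 for Mmp13, chr9:7347264-7347403 for Mmp12, chr9:7445712-7445851 for Mmp3, chr9:7502232-7502371 for Mmp10, chr9:7628121-7628260 for Mmp20 and chr9:7691980-7692119 for Mmp7.
Mmp13: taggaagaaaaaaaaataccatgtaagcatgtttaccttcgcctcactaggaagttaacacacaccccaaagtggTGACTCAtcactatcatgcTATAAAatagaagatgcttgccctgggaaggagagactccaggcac
Mmp12: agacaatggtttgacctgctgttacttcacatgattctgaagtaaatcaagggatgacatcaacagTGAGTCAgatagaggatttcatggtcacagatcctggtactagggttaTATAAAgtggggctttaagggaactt
Mmp3: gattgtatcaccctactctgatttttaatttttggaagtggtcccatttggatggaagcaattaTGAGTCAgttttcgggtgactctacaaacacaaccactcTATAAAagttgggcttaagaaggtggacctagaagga
Mmp10: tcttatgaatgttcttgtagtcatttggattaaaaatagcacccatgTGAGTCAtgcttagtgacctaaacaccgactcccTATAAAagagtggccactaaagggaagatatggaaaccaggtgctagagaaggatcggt
Mmp20: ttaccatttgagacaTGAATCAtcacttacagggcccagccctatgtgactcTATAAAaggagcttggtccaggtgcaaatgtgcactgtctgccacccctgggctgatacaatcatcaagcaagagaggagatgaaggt
Mmp7: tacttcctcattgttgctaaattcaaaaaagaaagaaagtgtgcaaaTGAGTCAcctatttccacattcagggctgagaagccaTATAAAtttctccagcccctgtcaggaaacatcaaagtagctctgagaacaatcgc
Promoters of 300 bases, from 250 before to 50 after a start, were found for 34 of the 49 members, 37 promoters in all, and motifs were searched on both strands. The AP-1 motif, the binding sequence of Fos and Jun factors, was in 6 of the 37 (16.2%), against 7.81% of all 32851 promoters in the table. All 6 were among the 10 cluster promoters, and 0 of the 27 member promoters outside the cluster held it. The GC box (GGGCGG), a binding sequence of Sp factors, was in 59.5% of member promoters and 35.7% of all promoters. The TATA motif was in 27.0% of member promoters and 13.6% of all. The AP-1 and TATA motifs did not overlap in the windows shown. A motif match is a description of these letters and was not tested as a site.

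In the cluster, Mmp10, Mmp20 and Mmp7 were at 0 counts in all 9 libraries. Mmp10 is a stromelysin, Mmp20 the enamel protease of developing teeth and Mmp7 an epithelial matrilysin. A count of 0 allows levels of up to 0.0353 to 0.0716 CPM (a count scaled to library size; 3 counts are taken as the floor), a limit that covers counting error only. Mmp3, a stromelysin made by fibroblasts, was the best covered gene of the 6, at 2.13 to 15.9 CPM. Mmp13, a collagenase, lay between 0.214 and 1.91 CPM, and Mmp12, a macrophage elastase, between 0 and 0.673 CPM. The AP-1 letters stood before 3 genes at 0 counts and before Mmp3 and Mmp13, which had counts in every library. They also stood before Mmp12, which was at 0 counts in KKA_K084 alone.

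The 9 libraries held 56827533 to 73194268 counts each. Mitochondrially encoded genes took 30.3% to 55.5% of them, most in KKA_186 and in the Ctrl library WA_130 (52.6%). The heart label was checked against 6 heart muscle genes, Myh6, Myl2, Myl3, Tnni3, Tnnt2 and Actc1. They summed to 15245 CPM in KKA_186 and to 21246 to 41362 CPM in the other 8 libraries. The labels' protocol also speaks of adipose tissue, but 4 adipocyte markers summed to 11.7 CPM in KKA_186 and to at most 2.27 CPM elsewhere. KKA_186 stood apart in other markers. Its 9 fibroblast markers summed to 3549 CPM (921 to 1367 elsewhere), its 8 epicardial markers to 104 CPM (4.12 to 18.8 elsewhere), and its 5 atrial markers to 2285 CPM (50.0 to 1226 elsewhere), with 469 CPM of the atrial light chain Myl7. WA_130 also held 47.7 CPM of Myl7, and the other 7 libraries held under 1 CPM. The atrial marker Nppa was not highest in KKA_186, at 1101 CPM against 1222 CPM in WA_127 and 1186 CPM in KKA_K084. In WA_127 it made up nearly all of the atrial sum of 1226 CPM. Of the epicardial markers, Wt1 was at 11.2 CPM in KKA_186, within the 3.78 to 14.4 CPM of the other libraries. Results are therefore given with and without KKA_186. In bulk tissue, fewer cells of a type and less RNA per cell cannot be told apart.

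Of the 49 members, 41 had enough counts to be tested and 8 did not: Adamts13, Adamts16, Adamts18, Mmp7, Mmp10, Mmp20, Mmp21 and Mmp24. None of the 8 had more than 12 counts in a library, and Mmp24, a membrane-type MMP of neurons, had its 11 counts in KKA_187 alone. Levels of different genes are compared per kb of exon. Timp3 was highest at a mean of 32.7 CPM per kb over the 9 libraries (range 26.3 to 53.2), next to Adamtsl5 at 28.7 (range 19.3 to 39.9), and these ranges overlap. Timp2 (12.7), Mmp2 (11.0), Adamtsl4 (10.8), Adamts10 (9.89) and Timp4 (8.25 CPM per kb) followed, and each overlapped its neighbour in this order. Timp1, at 5.11 CPM per kb, ranged from 1.60 to 16.8, in relative terms the widest of the inhibitors. Mmp2 was the highest protease of the MMP branch, and the other gelatinase, Mmp9, had a mean of 0.777 CPM per kb.

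**Figure D1:**
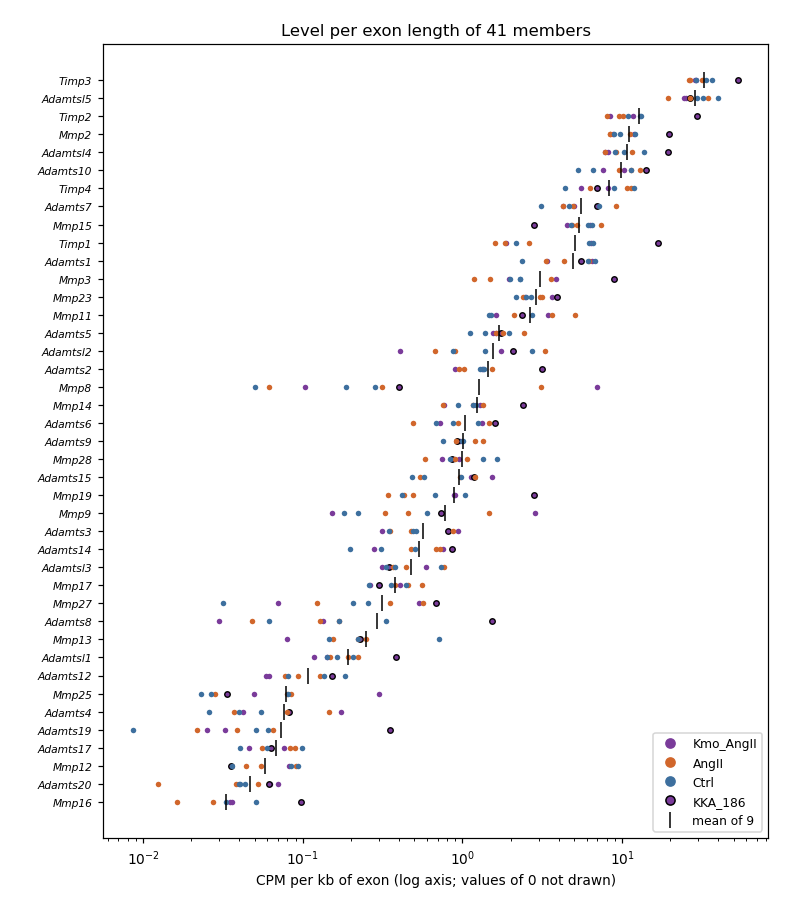
Level of the 41 tested members as CPM per kb of exon on a log axis, 1 row per gene in order of the mean of 9 libraries (black tick); points are single libraries coloured by treatment label, and KKA_186 has a black rim. Timp3 and Adamtsl5 lead, and KKA_186 is the highest point for Timp1, Timp2, Timp3, Mmp2 and Mmp3 and the lowest for Mmp15.

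Of the 4 inhibitors, 3 were highest in KKA_186. Timp3 (ENSMUSG00000020044, chromosome 10), which is held in the matrix, had 235, 233 and 433 CPM in the Kmo_AngII libraries KKA_K084, KKA_187 and KKA_186. It had 256, 214 and 217 CPM in the AngII libraries WA_132, WC_3 and WC_182, and 275, 299 and 235 CPM in the Ctrl libraries WA_130, WA_127 and WC_184. Without KKA_186 the remaining Kmo_AngII values (234.9 and 232.8 CPM) lay just below all Ctrl values, of which the lowest was 235.3 CPM, and the AngII values overlapped both. Scaled by library size alone, KKA_K084 and KKA_187 (268.6 and 251.3 CPM) overlapped the Ctrl values (187.0, 252.0 and 207.6 CPM). Of the exonic bases of Timp3, 21.3% are shared with Syn3 on the opposite strand, which itself reached 3.94 CPM at most, and the strand setting of the counting is not given in the sources used here.

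Timp2 (ENSMUSG00000017466, chromosome 11), which also takes part in activating Mmp2, was also highest in KKA_186. It had 45.5, 32.6 and 115 CPM in the Kmo_AngII libraries, 39.7, 31.5 and 37.2 CPM in the AngII libraries, and 50.5, 51.5 and 42.2 CPM in the Ctrl libraries. The 3 AngII values all lay below the 3 Ctrl values, and KKA_186 lay above all 8 others. Scaled by library size alone, the AngII values (49.5, 42.8 and 44.1 CPM) overlapped the Ctrl values (34.4, 43.4 and 37.2 CPM). KKA_186 stayed highest at 90.9 CPM. Timp4 (ENSMUSG00000030317, chromosome 6), the inhibitor known for its expression in heart muscle, did not follow KKA_186. It had 32.8, 48.0 and 40.8 CPM in the Kmo_AngII libraries, 67.3, 63.0 and 37.3 CPM in the AngII libraries, and 52.2, 70.4 and 25.7 CPM in the Ctrl libraries, so all 3 labels overlapped.

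Timp1 (ENSMUSG00000001131, chromosome X), an inhibitor often raised in injured tissue, varied most of the 4 relative to its level. It had 5.66, 1.66 and 14.9 CPM in the Kmo_AngII libraries, 2.31, 1.42 and 1.65 CPM in the AngII libraries, and 5.80, 5.49 and 1.93 CPM in the Ctrl libraries. Across labels its values formed a low range of 1.42 to 2.31 CPM in 5 libraries, a middle range of 5.49 to 5.80 CPM in 3 libraries, and KKA_186. WC_3, WC_182, WC_184, KKA_187 and WA_132 made up the low range, and WA_130, WA_127 and KKA_K084 the middle range. The 3 AngII libraries were in the low range, with a mean of 1.80 ± 0.463 CPM (SD, n = 3), and the other 2 labels each held libraries of both ranges. Scaled by library size alone, the same libraries spanned 1.70 to 2.89 CPM (low) and 3.95 to 6.48 CPM (middle), so the gap narrowed and the middle range widened. KKA_186 stayed highest at 11.8 CPM. This sorting into ranges was made after the values were seen and was given no test.

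**Figure D2:**
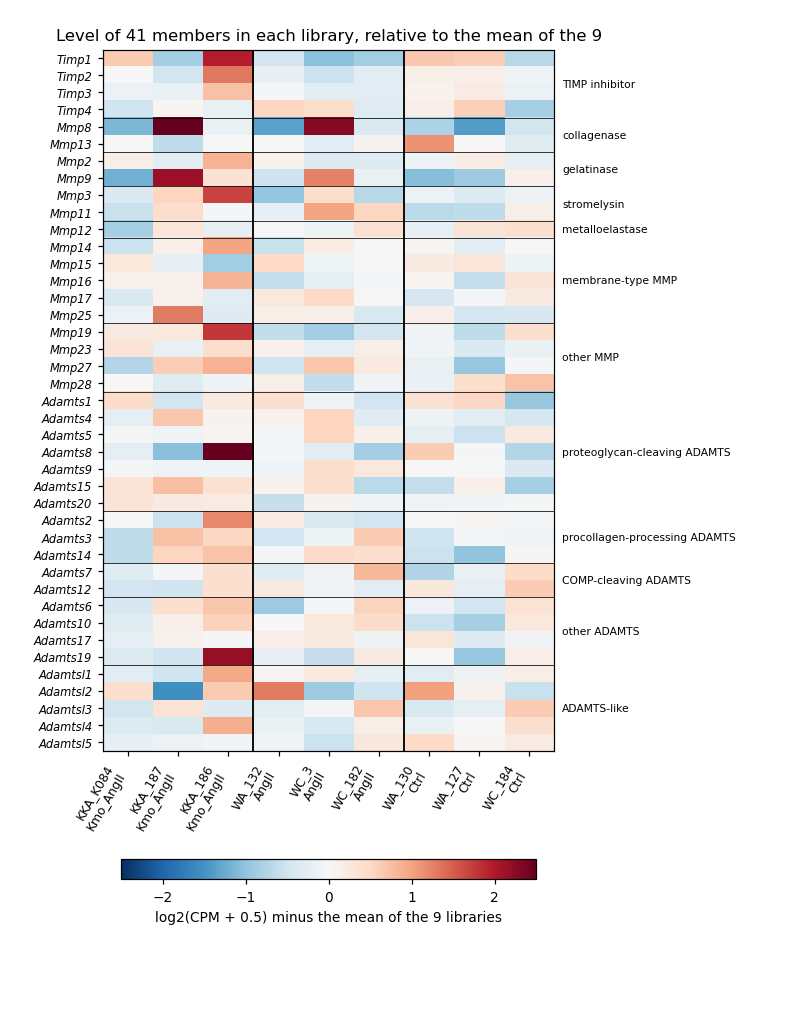
Log2 level (CPM + 0.5) of each of the 41 tested members minus its mean over the 9 libraries, with 1 column per library grouped by treatment label and rows grouped by role; colours saturate at the ends of the bar. KKA_186 is the highest library in 18 of the 41 rows, while Mmp8, Mmp9 and Mmp25 are highest in KKA_187.

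KKA_186 was the highest of the 9 libraries for 18 of the 41 tested members (43.9%), against 19.6% of all 19091 genes tested. By role, the 18 included 3 of the 4 TIMPs, 3 of the 4 tested MMPs without a class name, 3 of the 4 tested ADAMTS of other function and 2 of the 3 procollagen-processing ADAMTS. Only 1 of 7 proteoglycan-cleaving ADAMTS and 0 of 2 collagenases were highest there. Scaled by library size alone, it was highest for 13 members (31.7%), against 7.27% of all genes. Its fibroblast, epicardial and atrial marker sums, given above, were also the highest of the 9, and their part in these levels was not tested.

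The members farthest above the other libraries in KKA_186 were chosen here after their values were seen. Adamts8 (ENSMUSG00000031994), a protease known to inhibit vessel growth, had 0.621, 0.137 and 7.10 CPM in the Kmo_AngII libraries, 0.780, 0.589 and 0.223 CPM in the AngII libraries, and 1.53, 0.782 and 0.283 CPM in the Ctrl libraries. Its KKA_186 value was 11.7 times the median of the other 8 libraries. Adamts19, linked to heart valve development, was at 4.91 CPM, 9.84 times the median of the others. Timp1 was 7.01 times, Mmp19 4.84 times and Mmp3 4.16 times that median. Mmp14, the membrane-type MMP that activates Mmp2, was at 14.2 CPM or 2.04 times the median, close to the 2.10 times of Mmp2 and the 2.80 times of Timp2. Mmp15, another membrane-type MMP, was lowest in KKA_186 at 15.3 CPM, against 24.4 to 39.8 CPM elsewhere.

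Of the procollagen-processing enzymes, Adamts2 (ENSMUSG00000036545), which removes the N-terminal propeptide of fibrillar collagens, had 12.4, 8.42 and 29.5 CPM in the Kmo_AngII libraries. It had 14.4, 9.56 and 8.86 CPM in the AngII libraries and 12.6, 12.7 and 12.1 CPM in the Ctrl libraries, so that KKA_186 alone lay outside 8.42 to 14.4 CPM. Its relatives Adamts3 (1.70 to 5.12 CPM) and Adamts14 (1.02 to 4.48 CPM) do the same kind of trimming, and Adamts3 was highest in KKA_187 and Adamts14 in KKA_186.

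Adamtsl5, Adamtsl4 and Adamts10 were among the highest members per kb, and Adamtsl4 and Adamts10 were again highest in KKA_186. Adamtsl5 (ENSMUSG00000043822), a binder of microfibrils, had 116, 119 and 126 CPM in the Kmo_AngII libraries, 125, 91.1 and 162 CPM in the AngII libraries, and 189, 139 and 152 CPM in the Ctrl libraries. All Kmo_AngII values lay below all Ctrl values, while the AngII values overlapped both. Scaled by library size alone, the Kmo_AngII values (132, 129 and 100 CPM) overlapped the Ctrl values (128, 117 and 134 CPM). Adamtsl4 (ENSMUSG00000015850), whose loss displaces the eye lens, had 34.1, 32.9 and 81.1 CPM in the Kmo_AngII libraries, 38.6, 32.9 and 48.4 CPM in the AngII libraries, and 37.8, 43.0 and 57.4 CPM in the Ctrl libraries. Without KKA_186 the Kmo_AngII values lay below all Ctrl values, and the AngII values overlapped both. Scaled by library size alone, KKA_K084 and KKA_187 (39.0 and 35.5 CPM) overlapped the Ctrl values (25.7, 36.2 and 50.7 CPM).

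Adamts10 (ENSMUSG00000024299), a fibrillin-binding protease, had 62.9, 85.0 and 116 CPM in the Kmo_AngII libraries, 78.5, 93.7 and 107 CPM in the AngII libraries, and 53.9, 43.7 and 93.4 CPM in the Ctrl libraries. By prefix, the 3 WA libraries (43.7 to 78.5 CPM) all lay below the 3 WC libraries (93.4 to 107 CPM). Scaled by library size alone, these groups overlapped, with 97.8 CPM in WA_132 and 82.4 CPM in WC_184. Adamts7 (ENSMUSG00000032363), which cleaves cartilage oligomeric matrix protein, had 26.6, 31.6 and 43.7 CPM in the Kmo_AngII libraries, 26.7, 30.8 and 57.7 CPM in the AngII libraries, and 19.4, 29.2 and 45.1 CPM in the Ctrl libraries, so the labels overlapped throughout.

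Among the proteoglycan-cleaving enzymes, Adamts5, an aggrecan- and versican-cleaving protease, had 17.4, 16.7 and 18.7 CPM in the Kmo_AngII libraries, 17.5, 26.2 and 19.4 CPM in the AngII libraries, and 14.9, 12.1 and 21.0 CPM in the Ctrl libraries. Adamts9, a versican-cleaving protease, had 14.4, 13.9 and 13.9 CPM in the Kmo_AngII libraries, 13.7, 20.3 and 18.03 CPM in the AngII libraries, and 14.9, 15.1 and 11.4 CPM in the Ctrl libraries. Both were highest in the AngII library WC_3, and their labels overlapped. Adamts15 (ENSMUSG00000033453) had 11.6, 15.97 and 12.3 CPM in the Kmo_AngII libraries, 9.95, 12.5 and 5.65 CPM in the AngII libraries, and 5.96, 10.2 and 5.01 CPM in the Ctrl libraries. Its 3 Kmo_AngII values lay above its 3 Ctrl values. Adamts4 stayed under 1 CPM and Adamts20 between 0.111 and 0.633 CPM.

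Gelatinase Mmp2 (ENSMUSG00000031740), made by fibroblasts, had 39.8, 29.7 and 66.1 CPM in the Kmo_AngII libraries, 37.9, 28.1 and 28.4 CPM in the AngII libraries, and 32.8, 40.9 and 30.1 CPM in the Ctrl libraries. Without KKA_186 its values spanned 28.1 to 40.9 CPM and the labels overlapped. Mmp15 (ENSMUSG00000031790) had 33.8, 24.4 and 15.3 CPM in the Kmo_AngII libraries, 39.8, 26.1 and 28.0 CPM in the AngII libraries, and 32.9, 34.8 and 25.8 CPM in the Ctrl libraries. Its 3 lowest values outside KKA_186 were in KKA_187, WC_184 and WC_3.

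Mmp8 and Mmp9, 2 proteases that neutrophils store in granules, were highest in KKA_187 and next in WC_3. Mmp8 (ENSMUSG00000005800), the neutrophil collagenase, had 0.251, 16.8 and 0.967 CPM in the Kmo_AngII libraries, 0.149, 7.48 and 0.758 CPM in the AngII libraries, and 0.453, 0.122 and 0.691 CPM in the Ctrl libraries. Mmp9 (ENSMUSG00000017737), the second gelatinase, had 0.538, 10.1 and 2.59 CPM in the Kmo_AngII libraries, 1.16, 5.18 and 1.62 CPM in the AngII libraries, and 0.644, 0.782 and 2.13 CPM in the Ctrl libraries. These 2 libraries carry different treatment labels. The same 2 libraries were also highest for Adamts4 (0.839 and 0.707 CPM) and Adamts15 (15.97 and 12.5 CPM). In KKA_187 Mmp8 was 29.3 times and Mmp9 7.25 times the median of the other 8 libraries. Mmp25, a membrane-type MMP of leukocytes named after its values were seen, was at 1.60 CPM in KKA_187, 7.27 times the median of the others, but at only 0.424 CPM in WC_3.

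The summed level of 7 neutrophil markers, none of them a member, was 2.77, 299 and 18.5 CPM in the Kmo_AngII libraries, 5.42, 155 and 21.8 CPM in the AngII libraries, and 5.56, 8.51 and 24.1 CPM in the Ctrl libraries. KKA_187 and WC_3 were thus also the 2 highest libraries for these markers, and all 7 were detected in both. Ly6g, the defining neutrophil surface marker, was at 1.94 CPM in KKA_187 and 0.659 CPM in WC_3, at 0.0695 CPM in WA_127 and at 0 counts in the other 6. Their part in the levels of Mmp8 and Mmp9 was not tested.

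**Figure D3:**
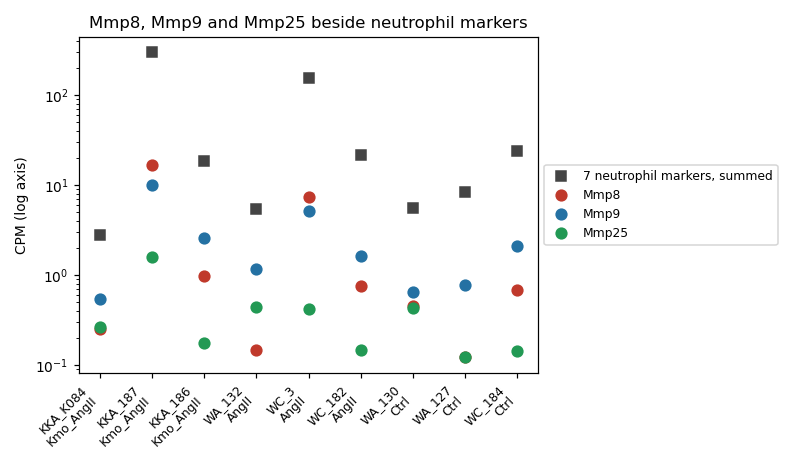
CPM on a log axis of Mmp8, Mmp9, Mmp25 and the sum of 7 neutrophil markers in each of the 9 libraries, ordered Kmo_AngII, AngII, Ctrl; the Mmp8 and Mmp25 points coincide in WA_127. Mmp8, Mmp9 and the marker sum are highest in KKA_187 (16.8, 10.1 and 299 CPM) and next in WC_3 (7.48, 5.18 and 155 CPM).

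The treatment labels were compared in 1 fit of all 9 libraries, with each log2 difference given as the first label minus the second and with its standard error. The first question is whether the Kmo_AngII hearts differed from the AngII hearts, both given angiotensin II. In the members, most differences were positive but none passed the test, and the median was below 0 without KKA_186. By edgeR's quasi-likelihood test, 0 of 41 members were called at an adjusted p under 0.05 (0% of all genes tested), and DESeq2 and limma-voom called 0 as well. At an unadjusted p under 0.05 there were 3 members, against 2.16% of all genes. Of the 41, 26 were higher and 15 lower, with a median log2 difference of 0.21 (all genes 0.03). Without KKA_186, 19 of 42 were higher and the median was -0.09 (all genes 0.02).

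In the same comparison Timp1 differed by 2.04 ± 0.69 on the log2 scale (edgeR adjusted p = 0.9998), and by 1.03 ± 0.58 without KKA_186. Mmp19, a protease of vessel walls and keratinocytes, had 3.13, 3.19 and 9.98 CPM in the Kmo_AngII libraries and 1.51, 1.201 and 1.74 CPM in the AngII libraries. These groups did not overlap, and the difference was 1.87 ± 0.51 (edgeR adjusted p = 0.9998) with KKA_186 and 1.09 ± 0.40 without it. Of the exonic bases of Mmp19, 22.3% are shared with Tmem198b on the opposite strand, which reached 15.1 CPM. Mmp3 had 3.50, 6.99 and 15.9 CPM in the Kmo_AngII libraries and 2.13, 6.45 and 2.66 CPM in the AngII libraries, a difference of 1.23 ± 0.55 (edgeR adjusted p = 0.9998) and of 0.48 ± 0.48 without KKA_186.

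Between Kmo_AngII and Ctrl hearts, 30 members were higher and 11 lower, with a median of 0.39 (all genes 0.05), and edgeR, DESeq2 and limma-voom each called 0 of 41 (edgeR 0% of all genes). At an unadjusted p under 0.05 edgeR had 2 members, against 2.79% of all genes. Without KKA_186, 20 of 42 members were higher and the median was -0.06 (all genes 0.03). All 7 proteoglycan-cleaving ADAMTS had positive differences, with a median of 0.65, and without KKA_186 it was 5 of 7, with a median of 0.094. The difference of Timp1 was 0.75 ± 0.67 (edgeR adjusted p = 0.998), and it turned to -0.26 ± 0.59 without KKA_186. That of Adamts15 was 0.91 ± 0.35 (edgeR adjusted p = 0.998) and 0.97 ± 0.39 without KKA_186. That of Mmp8 was 3.83 ± 1.67 (edgeR adjusted p = 0.998), and without KKA_187, the library with its highest level, it was 0.52. That of Mmp19, which had 2.39, 1.48 and 3.65 CPM in the Ctrl libraries, was 1.11 ± 0.50 (edgeR adjusted p = 0.998) and 0.34 ± 0.40 without KKA_186.

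**Figure D4:**
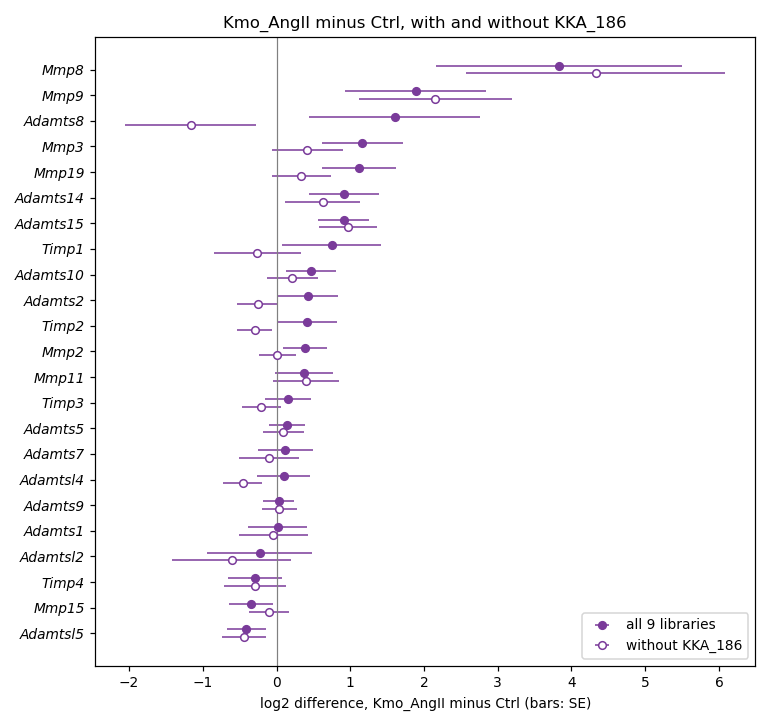
Log2 differences (Kmo_AngII minus Ctrl) with standard errors for 23 members, from the fit of all 9 libraries (filled points) and without KKA_186 (open points). Timp1, Timp2, Timp3, Adamts1, Adamts2, Adamts7, Adamtsl4 and Adamts8 are above 0 with KKA_186 and below 0 without it, while Adamts15 is at 0.91 and 0.97.

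Angiotensin II against PBS is the comparison of the AngII and Ctrl labels, and here the members were balanced. They split into 22 higher and 19 lower with a median of 0.04 (all genes 0.02). None of 41 was called by edgeR, DESeq2 or limma-voom (edgeR 0% of all genes), and 1 had an unadjusted p under 0.05 by edgeR, against 5.25% of all genes. The log2 difference of Timp1 was -1.29 ± 0.68 (edgeR adjusted p = 0.890). Mmp11, an MMP that furin activates inside the cell, had 5.84, 14.1 and 10.1 CPM in the AngII libraries and 4.10, 4.22 and 7.58 CPM in the Ctrl libraries, which overlap, and differed by 0.92 ± 0.40 (edgeR adjusted p = 0.890). Adamts14 had 2.49, 3.74 and 3.57 CPM in the AngII libraries and 1.60, 1.02 and 2.60 CPM in the Ctrl libraries, also with overlap, and differed by 0.91 ± 0.47 (edgeR adjusted p = 0.890). With the title prefix as a covariate these became -0.81 for Timp1, 0.58 for Mmp11 and 0.71 for Adamts14. The 3 treatment comparisons share libraries with one another, so their values are not independent.

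By title prefix, the KKA libraries are the Kmo_AngII libraries set against other groups of 3. For KKA minus WA, 29 of 41 members were higher with a median of 0.44 (all genes 0.05), and 21 of 42 without KKA_186 with a median of 0.02 (all genes 0.02). None was called by edgeR, DESeq2 or limma-voom (edgeR 0% of all genes), and 6 had an unadjusted p under 0.05, against 7.05% of all genes. The log2 differences were 0.71 ± 0.61 for Timp1 (edgeR adjusted p = 0.775; -0.30 ± 0.51 without KKA_186) and 1.60 ± 0.54 for Mmp19 (edgeR adjusted p = 0.681; 0.82 ± 0.45 without KKA_186). That of Mmp9 was 2.34 ± 0.84 and that of Mmp3 1.43 ± 0.52 (edgeR adjusted p = 0.681 for both), and without KKA_186 they were 2.60 ± 0.97 and 0.69 ± 0.43. Without KKA_187 that of Mmp9 was 0.82. Mmp3 had 2.13, 4.10 and 3.56 CPM in the WA libraries, and of the KKA values given above only that of KKA_K084 lay within this range. Leaving out KKA_K084 in place of KKA_186 raised the calls to 4 members, Adamts6, Mmp15, Mmp3 and Mmp9 (Adamts6 and Mmp15 are named after their values were seen), and the calls among all genes to 1709. With all 9 libraries, edgeR called 0 of 41 members and 0 of 19091 genes. The calls thus rose across all genes and not in the members alone. The numbers tested without KKA_K084 may differ from these, so no share is given.

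For KKA minus WC, 25 members were higher and 16 lower with a median of 0.16 (all genes 0.05), and without KKA_186 21 of 42 were higher with a median of -0.02 (all genes 0.02). None was called by edgeR, DESeq2 or limma-voom (edgeR 0% of all genes), and 6 had an unadjusted p under 0.05, against 3.51% of all genes. Timp1 differed by 2.15 ± 0.64 (edgeR adjusted p = 0.995; 1.14 ± 0.50 without KKA_186). Adamts8 differed by 2.82 ± 1.09 (edgeR adjusted p = 0.995), and by 0.06 ± 0.70 without KKA_186. Mmp19 differed by 1.31 ± 0.53 (edgeR adjusted p = 0.995), and by 0.53 ± 0.45 without KKA_186.

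WA and WC libraries each hold AngII and Ctrl hearts. In the fit of 9 libraries edgeR called 0 members (0% of all genes), limma-voom 0 and DESeq2 2 of 41, Mmp11 and Adamtsl2, against 2.65% of all genes with DESeq2. At an unadjusted p under 0.05 edgeR had 9 of 41 members, against 18% of all genes. The log2 differences were 1.44 ± 0.63 for Timp1 (edgeR adjusted p = 0.269), -1.16 ± 0.32 for Mmp11, 0.93 ± 0.27 for Adamts1 and 1.60 ± 0.50 for Adamtsl2 (edgeR adjusted p = 0.224 for these 3). Without KKA_K084, edgeR called 2 members, Adamts1 and Mmp11, and 1576 genes in all. With all 9 libraries, edgeR called 0 of 41 members and 0 of 19091 genes, so here too the calls rose across all genes. No share is given here either.

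A fit of the 6 WA and WC libraries alone, without the KKA libraries, was chosen with an earlier result of this fit known. In it edgeR called 6 of 41 members (14.6%), against 13.3% of all genes, so the share of members was near that of all genes. At an unadjusted p under 0.05 there were 16 members, against 29.7% of all genes. The Timp1, Adamtsl2 and Adamts1 genes were higher in WA hearts, and Mmp11, Mmp9 and Adamts7 lower. Over all 41, 16 were higher and 25 lower, with a median of -0.20 (all genes -0.01). All 4 TIMP genes were on the higher side, with a median of 0.48, while 11 of 16 Mmp and 11 of 16 Adamts genes were on the lower side. The number of calls moved with single libraries: edgeR called 1 member (2.44%) without WA_127 or WC_182, where 2.77% and 2.45% of all genes were called. It called 3 members (7.32%) without WA_130 or WC_184 (6.67% and 5.41% of all genes), 8 (19.5%) without WA_132 (15.9%) and 9 (22.0%) without WC_3 (2434 of 18692 genes). When counts were scaled by library size alone, the all-gene median moved to -0.32, the TIMP differences stayed above 0 at 0.01 to 1.03, and Mmp9 was the 1 member called (1.28% of all genes).

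Adamtsl2 (ENSMUSG00000036040, chromosome 2), a matrix protein that binds fibrillin and latent TGF-beta binding protein, had 26.2, 21.7 and 11.0 CPM in the WA libraries WA_132, WA_130 and WA_127. It had 5.39, 7.15 and 6.93 CPM in the WC libraries WC_3, WC_182 and WC_184, so the groups did not overlap. The log2 difference was 1.61 ± 0.29 (edgeR adjusted p = 0.00681), and it was called without any 1 of the 6 libraries. It was the 1 member called in each of these 6 repeats. Outside these prefixes KKA_187 held the lowest value of all 9 libraries, 3.23 CPM.

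Adamts1 (ENSMUSG00000022893, chromosome 16), a versican-cleaving protease with a part in heart valve and trabecula formation, had 33.0, 32.4 and 35.7 CPM in the WA libraries and 22.9, 17.6 and 12.5 CPM in the WC libraries. The WA values stood close together and above all WC values, with a difference of 0.94 ± 0.21 (edgeR adjusted p = 0.0160). Timp1 had 2.31, 5.80 and 5.49 CPM in the WA libraries and 1.42, 1.65 and 1.93 CPM in the WC libraries, without overlap, and rose in WA hearts by 1.45 ± 0.35 (edgeR adjusted p = 0.0208). The WA library nearest to WC was WA_132, the AngII heart of that prefix.

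Mmp11 (ENSMUSG00000000901, chromosome 10) had 5.84, 4.10 and 4.22 CPM in the WA libraries and 14.1, 10.1 and 7.58 CPM in the WC libraries, and the difference was -1.15 ± 0.26 (edgeR adjusted p = 0.0161). In both prefixes the Ctrl libraries were below the AngII libraries. Of its exonic bases, 5.58% are shared with Chchd10 on the opposite strand, a gene of up to 368 CPM. Mmp9 had 1.16, 0.644 and 0.782 CPM in the WA libraries and 5.18, 1.62 and 2.13 CPM in the WC libraries, and the difference was -1.76 ± 0.46 (edgeR adjusted p = 0.0275). Without WC_3 it was -1.08 and not called (edgeR adjusted p = 0.108). The 7 neutrophil markers summed to 5.42 to 8.51 CPM in the WA libraries and 21.8 to 155 CPM in the WC libraries, and their part in the difference was not tested. Adamts7 had 26.7, 19.4 and 29.2 CPM in the WA libraries and 30.8, 57.7 and 45.1 CPM in the WC libraries, with a difference of -0.81 ± 0.23 (edgeR adjusted p = 0.0416).

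Of the 41 members, 18 (43.9%) did not overlap between WA and WC, the 6 called ones among them, against 34.7% of all genes in a fit that called 13.3% of them. Scaled by library size alone, Adamts1 overlapped (22.0 CPM in WA_130, 31.1 in WC_3), as did Mmp11 (7.29 in WA_132, 6.69 in WC_184). The treatment label is unevenly spread, since WA holds 1 AngII library and WC holds 2. With the treatment label as a covariate, 4 members (9.76%) and 10.7% of all genes were called, and 3 of the members were among the 6: Adamtsl2 at 1.67 (edgeR adjusted p = 0.0111), Adamts1 at 1.08 (0.0143) and Mmp11 at -0.94 (0.0217). Adamts6, named after its values were seen, was the 1 call gained. The calls of Timp1 (1.08, edgeR adjusted p = 0.0512), Mmp9 (-1.54, 0.0519) and Adamts7 (-0.80, 0.0695) were lost. Haemoglobin genes and Nppa also divided the prefixes: 5 red cell markers summed to 116 to 490 CPM in WA and 2944 to 7318 CPM in WC, and Nppa was at 603 to 1222 CPM in WA and 48.0 to 114 CPM in WC. Their part in the member differences was not tested.

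**Figure D5:**
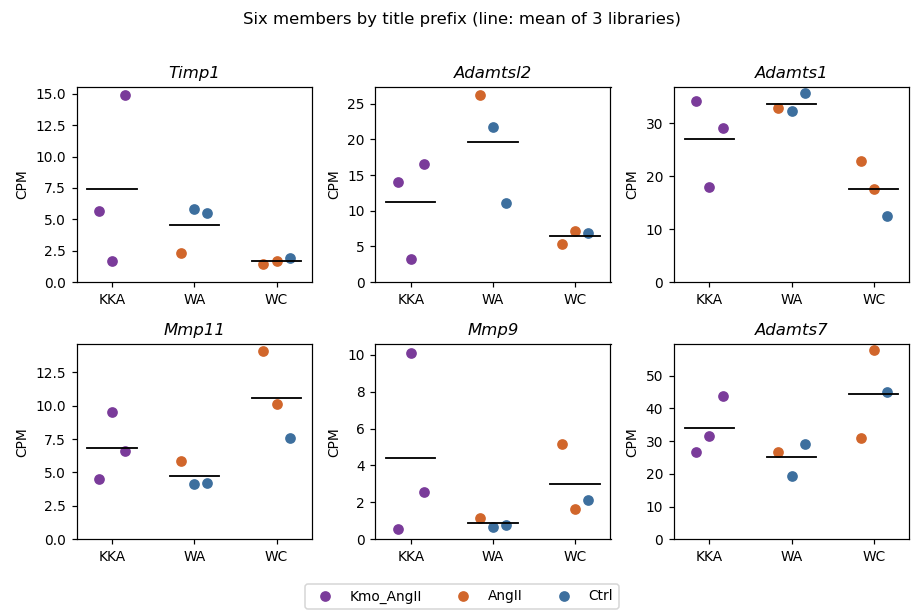
CPM of Timp1, Adamtsl2, Adamts1, Mmp11, Mmp9 and Adamts7 in the 9 libraries by title prefix (KKA, WA, WC), coloured by treatment label, with a line at the mean of 3 libraries. For each gene the 3 WA points and the 3 WC points do not overlap, and there are KKA points on both sides of the gap between them. The KKA_186 point lies inside the gap for Adamts1 (29.2 CPM) and Mmp11 (6.57 CPM).

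The promoters of Timp1, Adamtsl2, Adamts1 and Mmp11 are shown because these 4 called members differed by prefix and have an entry in the promoter table. They are RefSeq sequences on GRCm38.p6, read 5′ to 3′ on the gene's strand, with the GC box (GGGCGG or its complement on the other strand) and the TATA motif in capitals. The windows are chrX:20869916-20870215 (plus strand) for Timp1, chr2:27079129-27079428 (plus) for Adamtsl2, chr16:85803064-85803363 (minus) for Adamts1 and chr10:75932453-75932752 (minus) for Mmp11.
Timp1: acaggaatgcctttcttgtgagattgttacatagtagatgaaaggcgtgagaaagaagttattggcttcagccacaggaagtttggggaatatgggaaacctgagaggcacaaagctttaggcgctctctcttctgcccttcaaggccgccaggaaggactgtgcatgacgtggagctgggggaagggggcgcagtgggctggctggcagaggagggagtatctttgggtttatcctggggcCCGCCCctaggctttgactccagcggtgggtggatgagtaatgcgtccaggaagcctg
Adamtsl2: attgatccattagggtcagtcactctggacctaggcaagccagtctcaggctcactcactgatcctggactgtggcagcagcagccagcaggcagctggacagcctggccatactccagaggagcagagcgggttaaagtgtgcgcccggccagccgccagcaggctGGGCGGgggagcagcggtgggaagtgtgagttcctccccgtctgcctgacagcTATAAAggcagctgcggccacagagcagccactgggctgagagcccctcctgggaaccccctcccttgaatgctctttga
Adamts1: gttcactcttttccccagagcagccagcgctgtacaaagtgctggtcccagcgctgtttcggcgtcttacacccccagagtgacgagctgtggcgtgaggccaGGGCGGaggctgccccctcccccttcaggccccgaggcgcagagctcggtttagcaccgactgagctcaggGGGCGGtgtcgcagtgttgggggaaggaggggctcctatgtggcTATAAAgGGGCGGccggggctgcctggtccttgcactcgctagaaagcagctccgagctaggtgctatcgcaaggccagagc
Mmp11: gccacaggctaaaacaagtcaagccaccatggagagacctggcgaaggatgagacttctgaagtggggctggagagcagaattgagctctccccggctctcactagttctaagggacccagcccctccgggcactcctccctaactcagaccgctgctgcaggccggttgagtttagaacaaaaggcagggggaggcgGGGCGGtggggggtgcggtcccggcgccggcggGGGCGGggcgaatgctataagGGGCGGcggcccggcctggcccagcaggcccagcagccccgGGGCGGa
The AP-1 letters searched for were not in these 4 windows, and all 4 held at least 1 GC box. Only exact matches were counted, so near matches such as tgagtaa in the Timp1 window were left out. Mmp11, which was lower in WA hearts, held 4 GC boxes and no TATA motif, and Adamts1, which was higher, held 3 GC boxes and 1 TATA motif just before the last of them. Timp1 held 1 GC box, and Adamtsl2 held 1 GC box and 1 TATA motif.

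Of 28 tested genes that activate, inhibit or clear matrix proteases, 6 (21.4%) were called in the fit of WA and WC libraries. That fit called 13.3% of all genes. Of the 6, 3 were higher and 3 lower. Adam9, a membrane sheddase, rose in WA hearts by 0.74 (edgeR adjusted p = 0.0149) and Bsg, an inducer of MMPs, by 0.70 (edgeR adjusted p = 0.0497). Thbs2, a matrix protein that helps clear Mmp2, had 10.6, 8.01 and 14.1 CPM in the WA libraries and 23.1, 20.1 and 20.8 CPM in the WC libraries, without overlap, and fell by 0.95 (edgeR adjusted p = 0.0144), the proprotein convertase Pcsk7 by 0.72 (edgeR adjusted p = 0.0202) and Adam15 by 0.60 (edgeR adjusted p = 0.0369). With the treatment label as a covariate, Bsg (edgeR adjusted p = 0.0795) and Adam15 (edgeR adjusted p = 0.0554) were no longer called.

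Of 13 tested matrix substrates, 4 (30.8%) were called in the same fit, against 13.3% of all genes. Neither list was tested as a set. Eln, the elastin gene, fell by 0.89 on the log2 scale in WA hearts (edgeR adjusted p = 0.0152). The fibrillar collagen genes Col3a1 (0.93, edgeR adjusted p = 0.0234) and Col1a2 (0.76, edgeR adjusted p = 0.0415) and Vcan, which encodes versican, the proteoglycan that Adamts1 cleaves (0.73, edgeR adjusted p = 0.0489), were higher. With the treatment label as a covariate Col1a2 (edgeR adjusted p = 0.0603) and Vcan (edgeR adjusted p = 0.0719) were lost. The median of the 13 was 0.72, against -0.01 over all genes. Scaled by library size alone, none of the 9 genes named here from both lists was called by edgeR.

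In the comparisons of 9 libraries edgeR and limma-voom called 0 partner and 0 substrate genes (0% of all genes with each). DESeq2 called 1 partner gene between WA and WC (3.57% of the 28, against 2.65% of all genes). At an unadjusted p under 0.05 edgeR had 1 to 4 partner and 0 to 2 substrate genes per comparison, against 2.16% to 18% of all genes. Among the partner genes, the smallest p-values of Kmo_AngII minus AngII were those of Ctss and Thbs1, a matrix protein that activates latent TGF-beta (1.14 ± 0.28 and 0.98 ± 0.34 on the log2 scale, edgeR adjusted p = 0.9998). Without KKA_186 they were 0.92 ± 0.29 and 0.47 ± 0.25. Ctss, a cathepsin that degrades elastin, had 9.45, 10.4 and 14.8 CPM in the Kmo_AngII libraries and 6.82, 5.17 and 3.78 CPM in the AngII libraries, without overlap. Of the substrates, Comp, the protein that Adamts7 cleaves, had 4.60, 0.686 and 18.9 CPM in the Kmo_AngII libraries and 1.77, 1.19 and 1.87 CPM in the AngII libraries. These overlapped, and the difference was 2.32 ± 0.96 (edgeR adjusted p = 0.9998), and 0.72 ± 0.79 without KKA_186. Col1a1, a fibrillar collagen gene, differed by 1.45 and by 0.086 without KKA_186. The substrate median of that comparison was 0.72, and 0.01 without KKA_186. In AngII minus Ctrl the substrate median was -0.35, with 11 of 13 genes lower, and in Kmo_AngII minus Ctrl it was 0.38, and -0.29 without KKA_186.

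The other genes with the smallest p-values are given by their log2 differences, none of them called. In Kmo_AngII minus Ctrl these were Ctss (0.73) and Adam8, a leukocyte sheddase (1.26), with Comp (1.56) and Fn1, fibronectin (0.58), among the substrates. Without KKA_186 these were 0.51 for Ctss, 1.35 for Adam8, -0.043 for Comp and -0.044 for Fn1. AngII minus Ctrl gave Adam17, the sheddase of tumour necrosis factor (0.32), with the proteoglycan gene Bgn (-1.16) and Col1a1 (-0.84). KKA minus WA gave Thbs2 (0.92) and Adam8 (1.36) with Eln (0.88) and Fn1 (0.70), and without KKA_186 these were 0.70, 1.45, 0.39 and 0.082. KKA minus WC gave Ctss (1.13) with Comp (2.65) and Vcan (0.88), and without KKA_186 these were 0.91, 1.05 and 0.39.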

How the data were processed

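RNA was measured in 9 mouse heart libraries, with poly(A) selection and paired-end sequencing per the labels' protocols. The authors deposited 1 table of whole-number read counts per Ensembl gene, used as deposited. The submitters' processing notes name HISAT2 2.0, StringTie 1.3.0, Bowtie 0.12.2 and build mm8, without their roles. How reads were counted, on which annotation and with which strand option, is not given in the sources used here. Symbols and exon lengths came from GENCODE vM21, matched by gene ID (55141 of 55401; 260 had no match). Because mm8 may not be the build of the counts, exon overlaps hold for GENCODE only.

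Genes passing filterByExpr (19091, or 18111 in the fit of 6 libraries) were tested with edgeR 4.0.16 (R 4.3.3): TMM scaling, robust quasi-likelihood F-test, Benjamini-Hochberg adjustment over all genes tested, called at an adjusted p under 0.05. Standard errors are the log2 difference over the square root of F, so they restate the test. CPM used TMM-scaled library sizes. Library pairs differed beyond sampling noise (lowest chi-square per degree of freedom 62.1). Alternatives were DESeq2 1.42.0 and limma-voom (limma 3.58.1), other scalings and filters, covariates and leaving out each library. The fits of AngII minus Ctrl and of the 6 libraries were also run on simulated counts with the same spread for every gene. Those counts leave out the differences between single libraries seen here, so they do not test the calls against them.

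Levels were named for the 4 TIMPs, the 12 other members of highest mean CPM and members a comparison named. Comparisons named Timp1, called members, or up to 3 members by smallest p; of the other lists, called genes or the 2 of smallest p. Members and lists were chosen with earlier results of these data known. A gene of the partner list is not reported here.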

Additional observations from a re-analysis of the deposited data

How the results depend on the processing

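Of the log2 differences of named members under alternatives, 406 kept their direction and side of the threshold, 28 lost a call, 10 gained one and 2 reversed. Without KKA_186 the Timp1 difference was -0.26 in Kmo_AngII minus Ctrl and -0.30 in KKA minus WA; over all libraries left out in turn the ranges were -0.26 to 1.22 and -0.30 to 1.18. The member medians over left-out libraries ranged from -0.093 to 0.52 (Kmo_AngII minus AngII), -0.058 to 0.59 (Kmo_AngII minus Ctrl), 0.018 to 0.61 (KKA minus WA) and -0.075 to 0.44 (KKA minus WC). Scaled by library size alone, member medians were 0.68 (AngII minus Ctrl), -0.17 (Kmo_AngII minus AngII), 0.64 (Kmo_AngII minus Ctrl), -0.54 (WA minus WC, in both fits) and -0.073 (KKA minus WC). The all-gene medians then were 0.67, -0.29, 0.37, -0.33 (9 libraries), -0.32 (6 libraries) and -0.13 in the same order. The causes were not tested. Members called between WA and WC numbered 2 with DESeq2 (2.65% of all genes) and 6 with only these 2 groups, which is the fit of 6 libraries (13.3% of all genes). Over left-out libraries they numbered 0 to 2, and 0 to 4 in KKA minus WA. The calls among all genes without KKA_K084, where 2 and 4 members were called, are given above. In the fit of 6 libraries, members called numbered 1 by library size and 10 (24.4%) with DESeq2, which called 19.1% of all genes. Over left-out libraries of that fit they numbered 1 to 9. Calls among all genes there were 2409, against 232 by library size and 1020, 1270, 524 and 459 without WC_184, WA_130, WA_127 and WC_182. In the fit of 9 libraries, DESeq2 called 2 (AngII minus Ctrl), 3 (Kmo_AngII minus AngII), 9 (Kmo_AngII minus Ctrl), 505 (WA minus WC), 91 (KKA minus WA) and 27 (KKA minus WC) genes where edgeR called 0; library size alone gave 11, 1 and 7, and no filter 5, 1 and 4, in the last 3. No paired analysis was possible because the labels carry no replicate numbers and those used here only follow accession order. Members under about 1 CPM rest on few counts, which limits their precision.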
